A study of Mus musculus with 6 samples.

Results

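The sperm axoneme genes described here are all genes on the array whose symbol starts with Dnah, Dnai, Dnaic, Dnal, Dnali, Tekt, Cfap, Rsph or Spag followed by a number. The rule took 120 probes of 62 genes, out of 45281 probes and 19057 genes on the Illumina MouseWG-6 v2.0 BeadChip. It used the symbol only and no measured value. Testis total RNA came from 6 C57Bl/6 mice aged 4 months, with 1 array for each mouse. The WD group held mice 3, 4 and 6, whose diet is given as high fat in the labels and was a Western-like diet containing butter and sucrose. The SD group held mice 1, 2 and 5 on the standard diet. Both groups had the same strain, age and tissue, and the labels name no transgene or mutation. By the study's own account, mice with the strongest response to the diet were not taken for the arrays. The comparison asks whether the transcripts of the sperm tail differed between testes of WD and SD males.

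The axoneme is the microtubule core of the sperm flagellum, in which doublet microtubules surround a central pair. Dynein arms on the doublets walk along the neighbouring doublet and bend the tail, while radial spokes and the central apparatus coordinate them. The parts are transcribed and assembled during sperm formation. Faults in many of them lead to sperm that do not swim and to diseases of motile cilia.

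Detection matched the labelled tissue. Of the marker lists, 10 of 11 genes of elongating spermatids, 7 of 8 of round spermatids and 7 of 9 of spermatocytes were measured. The exceptions included Sycp3, a component of the meiotic chromosome axis, whose probe was detected on no array. Prm1, the protamine that packs sperm DNA, was at a log2 level of 15.80 in WD mice and 15.80 in SD mice. Its value on each array was 15.77 or 15.81. Quantile normalization makes such top values common to the arrays, so their equality is not a result about diet. Between 42.0% and 47.1% of all probes were detected on each array, and the median raw intensity was 120.1 to 159.3 in WD mice and 126.2 to 172.5 in SD mice. The 2 dimmest arrays were those of WD mouse 6 and SD mouse 5, which are also the arrays whose description carries no number. All levels below are log2 intensities after background correction and quantile normalization. A probe's brightness depends on its sequence as well as on its transcript, so each probe was compared with itself between mice and genes were not ranked by level.

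Most axoneme probes gave signal in testis. Detection means a signal above the negative controls, at a detection p under 0.05. Of the 120 probes, 83 were detected on at least 3 of the 6 arrays and were tested (69.2%), against 43.6% of all probes on the array. Detection on all 6 arrays was found for 77 axoneme probes (64.2%) and for 36.2% of all probes, and detection on no array for 32 (26.7%) and 44.0%. All probes here include 10378 without a gene symbol, whereas every axoneme probe has a symbol. The shares over probes with a symbol are not given here. The tested probes stood for 53 of the 62 genes, and 50 genes had a probe detected on all 6 arrays. No probe was detected on all 3 arrays of 1 diet and on none of the other.

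Detection differed between the parts of the axoneme. All 4 tektin probes and all 4 probes of dynein arm assembly factors were detected on all 6 arrays, as were 9 of 10 probes of the intermediate and light chains. The large heavy chains gave less, with 4 of 11 outer arm and 2 of 8 inner arm probes on all 6 arrays. The 9 genes without a tested probe were the outer arm heavy chains Dnah5 and Dnah9, the inner arm heavy chains Dnah6 and Dnah10, the central apparatus genes Spag17 and Cfap74, Cfap36, and Spag11a and Spag11b, which encode antimicrobial peptides of the epididymis. For 8 of these no probe was detected on any array, while Dnah5 had 1 probe detected on a single array. Absence of signal from a probe does not show that its transcript is absent, since 15 genes had 1 probe detected on all 6 arrays and another detected on none. Dnah17, Cfap20dc, Cfap65, Cfap161 and Spag6l were among them. Of the 78 genes of the RefSeq table that follow the symbol rule, 16 had no probe under that symbol and were not analysed here.

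**Figure D1:**
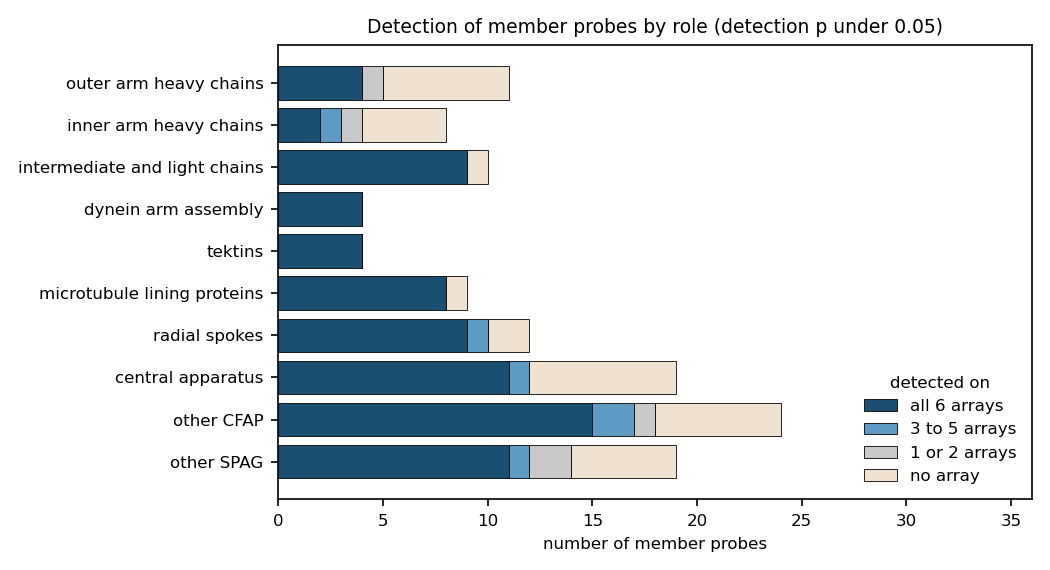
Number of axoneme probes (horizontal axis) by the role of the gene, split by the number of arrays on which the probe was detected at a detection p under 0.05. All 4 tektin probes and all 4 assembly factor probes were detected on all 6 arrays, while 6 of the 11 probes of outer arm heavy chains were detected on none.

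The sequences before the start sites were searched for motifs of regulators of cilium and spermatid genes. RFX factors bind the X-box of many cilium genes, and CREM, an activator of spermatid genes, binds the cAMP response element. Among the 250 bases before the RefSeq start site (GRCm38.p6), read on both strands, the short X-box core GTTGCC stood in 14 of the 52 axoneme genes with an entry (26.9%), against 11.8% of all 27025 genes and 13.4% of the genes tested here. The whole X-box, which is GTTNCC followed after 2 free bases by GGNAAC and can contain the core, stood in 2 of 52 (3.85%) against 0.444% of all genes and 0.710% of the tested ones. The cAMP response element TGACGTCA stood in 3 of 52 (5.77%) against 1.77% and 2.99%. Among tested axoneme genes the response element stood in 2 of 45 (4.44%). Counts of 2 or 3 genes are too small to read as a shared trait. There were 32851 entries for the 27025 genes, and genes with several entries had more chances of a match. A match is a description of letters and not a bound site. Both whole X-boxes, 2 of the matches to the core and the response elements of both tested genes are shown with their flanks. They are printed 5′ to 3′ on the strand of the gene, with only the letters of the shown match in capitals. They lie at chr14:8666355-8666416 on the minus strand for Cfap20dc, chr16:90935000-90935061 minus for Cfap298, chr11:72361883-72361921 minus for Tekt1, chr1:69826843-69826896 plus for Spag16, chr2:156065152-156065207 plus for Spag4 and chr16:16829364-16829396 minus for Spag6l.
Cfap20dc: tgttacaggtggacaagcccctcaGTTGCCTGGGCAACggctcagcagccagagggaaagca
Cfap298: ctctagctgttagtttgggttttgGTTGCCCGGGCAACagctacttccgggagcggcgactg
Tekt1: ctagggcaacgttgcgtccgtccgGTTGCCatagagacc
Spag16: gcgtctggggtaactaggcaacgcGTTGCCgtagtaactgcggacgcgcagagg
Spag4: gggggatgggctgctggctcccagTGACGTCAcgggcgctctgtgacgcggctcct
Spag6l: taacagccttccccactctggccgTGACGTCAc
The whole X-boxes of Cfap20dc and Cfap298 begin 102 and 188 bases before the start site. The response elements of Spag4 and Spag6l begin 37 and 9 bases before it. The stretches of Tekt1 and Spag16 also hold the core on the other strand, as ggcaac, which was left in lower case.

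Between the diets, no axoneme transcript passed the test. In the limma fit over all 19763 tested probes with Benjamini-Hochberg adjustment, 0 of the 83 axoneme probes had an adjusted p under 0.05, and the background was the same, with 0% of all tested probes called. The smallest adjusted p was 0.935 among the axoneme probes and 0.801 among all probes. At an unadjusted p under 0.05 there were also 0 axoneme probes, against 5.13% of all tested probes, of which 2.56% were higher and 2.57% lower in WD mice. The 3 WD values and the 3 SD values did not overlap at 6 axoneme probes (7.23%), against 10.2% of all tested probes. Of these, 3 were higher in WD mice (3.61%, against 5.17% of all) and 3 lower (3.61%, against 4.98%). All of these shares lie below the background and none is a result about the axoneme genes.

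The size of the differences was small. With 1 probe for each gene, the one with the highest mean over the 6 arrays, the log2 difference, WD minus SD, ranged between -0.31 for Cfap100 and 0.38 for Cfap61 and had a median of -0.02, against 0.01 over all 11264 tested genes. The median absolute difference was 0.06 for axoneme genes and 0.12 for all genes. The 95% interval of the difference stayed within 1.5-fold either way for 44 of the 53 axoneme genes (83.0%), against 63.9% of all tested genes, and for 65 of the 83 probes (78.3%), against 59.4% of all tested probes. It stayed within 2-fold for all 53 genes and for 82 of the 83 probes, the exception being 1 of the probes of Spag4. Differences larger than these bounds are outside the intervals, while smaller ones are not excluded by these 6 mice. The spread between mice of 1 diet was also narrow, with a median residual s.d. of 0.13 for axoneme genes and 0.19 for all genes. The sets compared here were not matched for brightness. The axoneme probes ran from dim, as Rsph4a at percentile 11.5 of the tested levels, to bright, as Rsph1 at 99.8. Whether brightness plays a part in these contrasts with all genes was not tested.

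Neither direction was stable. The WD mean lay above the SD mean for 23 axoneme genes and below it for 30, so 43.4% were higher, against 51.7% of all tested genes. By probe, 33 of 83 were higher (39.8%), against 49.8% of all. With each array scaled to a common median in place of quantile normalization, 13 were higher and 40 lower (24.5% higher), against 40.7% of all tested genes. With the authors' deposited log2 values 14 were higher and 39 lower (26.4% higher), against 44.9% of all. These scalings moved the median difference of all tested probes to -0.05 and -0.01. Without WD mouse 3 the split turned round, with 34 higher and 19 lower and a median of 0.04, where 52.1% of all tested genes were higher. Without SD mouse 5 it was 28 higher and 25 lower with a median of 0.01, where 52.7% of all were higher. In bulk testis RNA, fewer cells of a type and less RNA in each cell cannot be told apart.

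**Figure D2:**
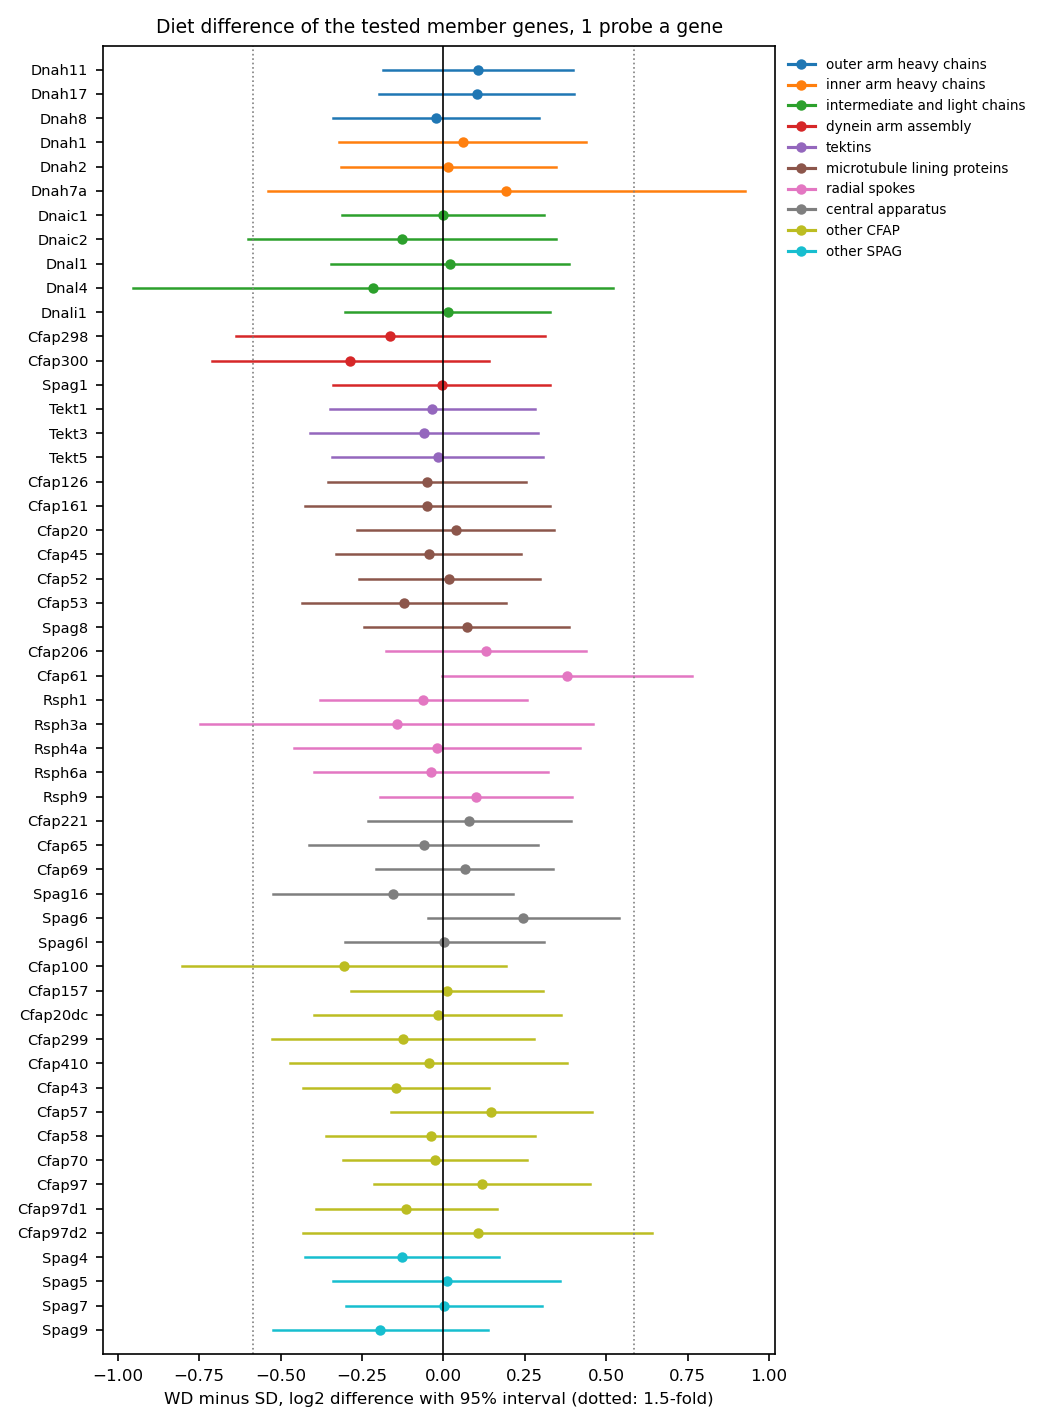
Log2 difference, WD minus SD, of the 53 tested axoneme genes with 1 probe each (points) and its 95% interval from limma (lines), coloured by role; dotted lines mark 1.5-fold. Every interval crosses 0, and 9 of the 53 reach beyond 1.5-fold.

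The outer arm heavy chains are the motors that give the beat its power. Dnah8, the outer arm heavy chain of the sperm flagellum, had log2 levels of 11.10, 11.19 and 11.21 in WD mice, against 11.34, 11.22 and 11.01 in SD mice (probe ILMN_2602341). SD mice 1 and 2 lay above the WD mice, SD mouse 2 only just, and SD mouse 5 lay below them, and the difference was -0.02 ± 0.14 (SE; limma adjusted p = 0.992). The second Dnah8 probe (ILMN_1215666) read 7.96, 8.20 and 8.33 in WD mice, against 8.63, 8.40 and 8.45 in SD mice. Here all 3 WD mice lay below all 3 SD mice, the difference was -0.33 ± 0.15 and its 95% interval ran between -0.67 and 0.01, with a limma unadjusted p of 0.0549 and an adjusted p of 0.935. The 2 probes of this gene therefore differed in size, and the difference between them was not tested. Dnah17, also an outer arm heavy chain of the sperm tail, had 10.27, 10.38 and 10.30 in WD mice and 10.13, 10.15 and 10.37 in SD mice. SD mice 1 and 2 lay below the WD mice and SD mouse 5 among them. Dnah11, known from airway and nodal cilia, had 8.45, 8.68 and 8.54 in WD mice and 8.47, 8.47 and 8.41 in SD mice, with WD mouse 3 inside the SD range. The differences of Dnah17 and Dnah11 were 0.10 ± 0.13 and 0.11 ± 0.13 (SE).

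The inner arm heavy chains shape the bend. Dnah1, which is needed for the human and mouse sperm tail, averaged 7.33 ± 0.22 in WD mice and 7.27 ± 0.19 in SD mice (s.d., n = 3 each). Dnah2 averaged 9.56 ± 0.20 in WD mice and 9.55 ± 0.05 in SD mice. Dnah7a was close to the detection limit, at 6.09, 5.57 and 5.41 in WD mice and 6.22, 5.23 and 5.04 in SD mice, and was detected on 4 arrays. Its values spread more within SD than between the diets, with the highest and the lowest of the 6 mice both on the standard diet. Over the 6 tested heavy chains the median difference was 0.08 and stayed above 0 under every setting tried, down to 0.03 with either other scaling. All these settings use the same mice. By mouse the median deviation from the SD mean was -0.02, 0.12 and 0.05 in WD mice 3, 4 and 6. It was 0.02, -0.02 and 0.001 in SD mice 1, 2 and 5, so WD mouse 3 was the lowest.

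Intermediate and light chains hold the dynein arms together and anchor them. Dnaic1, an intermediate chain of the outer arm, had 11.07, 11.37 and 11.23 in WD mice, against 11.21, 11.31 and 11.16 in SD mice. WD mouse 3 was the lowest and WD mouse 4 the highest of the 6, so that the SD values lay inside the WD range, and the difference was 0.00 ± 0.14 in size (SE). Dnali1, the light intermediate chain of inner arms, had 12.76, 12.77 and 12.89 in WD mice and 12.79, 12.63 and 12.96 in SD mice, again with full overlap. Its second probe averaged 6.64 ± 0.41 in WD mice and 6.98 ± 0.30 in SD mice, a difference of -0.34 ± 0.24 (SE; limma adjusted p = 0.935). The outer arm light chain Dnal1 had 3 tested probes, with differences of 0.02, -0.05 and 0.00 in size, and Dnaic1 a second one at 0.06. Dnaic2, the partner of Dnaic1, averaged 6.32 ± 0.22 in WD mice and 6.45 ± 0.36 in SD mice. Dnal4, a further light chain, read 5.73, 5.99 and 7.03 in WD mice, against 6.21, 6.44 and 6.75 in SD mice. WD mouse 6 stood above and WD mice 3 and 4 below all SD mice, which gave Dnal4 the widest residual s.d. of all 53 genes, 0.52.

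Dynein arms are assembled in the cytoplasm before they reach the tail, and 3 axoneme genes act there. Cfap300 had 8.43, 8.65 and 9.07 in WD mice and 8.99, 8.88 and 9.14 in SD mice. WD mice 3 and 4 lay below the SD mice and WD mouse 6 within them, the difference was -0.29 ± 0.18 (SE; limma adjusted p = 0.935), and without WD mouse 6 it was -0.46. Cfap298, whose X-box is printed above, averaged 5.98 ± 0.30 in WD mice and 6.15 ± 0.29 in SD mice (s.d., n = 3 each). Spag1 averaged 10.71 ± 0.21 in WD mice and 10.71 ± 0.04 in SD mice, and its second probe 9.41 ± 0.27 in WD mice and 9.53 ± 0.22 in SD mice.

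Tektins form filaments inside the doublet microtubules. Tekt1 had 12.86, 13.02 and 13.18 in WD mice, against 13.06, 12.97 and 13.12 in SD mice, and its second probe 12.73, 13.09 and 12.91 in WD mice, against 12.94, 13.09 and 12.91 in SD mice. Tekt3, which supports progressive swimming in mice, had 11.84, 11.68 and 11.54 in WD mice and 11.82, 11.89 and 11.53 in SD mice. Tekt5, a tektin of the sperm tail, had 8.72, 9.06 and 9.01 in WD mice and 9.02, 8.92 and 8.91 in SD mice. In all 4 probes the diets overlapped, and WD mouse 3 was the lowest of the 6 mice at both Tekt1 probes and at Tekt5. The differences were -0.03, -0.07, -0.06 and -0.02, and the 95% intervals reached no further than 0.41 either way on the log2 scale. The median over the 3 tektins was -0.03, and turned to 0.04 without WD mouse 3.

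Other proteins line the inside of the doublets, and all 7 of their genes were measured. Cfap45 averaged 12.98 ± 0.03 in WD mice and 13.03 ± 0.10 in SD mice, and Cfap52 averaged 11.05 ± 0.03 in WD mice and 11.03 ± 0.07 in SD mice (s.d., n = 3 each). These were among the steadiest axoneme genes. Cfap20, Cfap126, Cfap161 and Spag8 had differences between -0.05 and 0.07. Cfap53 had -0.12 ± 0.14 at 1 probe and -0.26 ± 0.24 at another (SE), where WD mouse 3 was the lowest at 7.50 and WD mouse 6 the highest at 8.51, against 8.09 to 8.31 in SD mice.

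Radial spokes carry signals between the central pair and the dyneins. Rsph1, a protein of the spoke head, had 14.62, 14.89 and 14.68 in WD mice, against 14.90, 14.80 and 14.67 in SD mice. The diets overlapped and the difference was -0.06 ± 0.14 (SE). Rsph9 and Rsph6a, also of the head, overlapped as well. Rsph9 averaged 12.06 ± 0.09 in WD mice and 11.96 ± 0.09 in SD mice, and Rsph6a 8.98 ± 0.24 in WD mice and 9.02 ± 0.09 in SD mice. Rsph4a, at 5.57 ± 0.32 in WD mice and 5.59 ± 0.18 in SD mice, was detected on 5 arrays. The second Rsph9 probe averaged 11.06 ± 0.29 in WD mice and 11.14 ± 0.09 in SD mice, the other way round. Rsph3a, of the spoke stalk, had 11.74, 11.84 and 11.30 in WD mice and 12.18, 11.92 and 11.21 in SD mice. Its low values were those of WD mouse 6 and SD mouse 5, 1 in each diet, and the difference was -0.14 ± 0.26 (SE). Rsph3a has a near copy in the mouse genome, Rsph3b, and whether the probe reads both was not tested.

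Cfap61, which belongs to a complex at the base of the spokes, had the largest difference of the 53 genes. Its probe ILMN_2505634 read 6.57, 6.00 and 6.25 in WD mice, against 5.98, 5.81 and 5.88 in SD mice. All 3 WD mice lay above all 3 SD mice, WD mouse 4 only just above SD mouse 1 and WD mouse 3 furthest up. The means were 6.27 ± 0.28 in WD mice and 5.89 ± 0.08 in SD mice (s.d., n = 3 each), and the difference was 0.38 ± 0.17 (SE), or 1.30-fold, with a 95% interval between -0.01 and 0.76. The limma unadjusted p was 0.0526, the smallest of the 83 axoneme probes, and the adjusted p was 0.935. A second Cfap61 probe, at 5.79, 6.13 and 6.10 in WD mice and 6.52, 5.76 and 5.75 in SD mice, gave 0.00 ± 0.23 in size. Both probes were dim, at percentiles 22.6 and 21.3 of the tested levels, so the choice between them by mean level was close. The first carries no transcript accession in the annotation. A further 2 probes of the gene were detected on no array. Without background correction the difference of the first probe was 0.14, and it lay between 0.23 without WD mouse 3 and 0.52 without WD mouse 4. Cfap206, also at the spoke base, had 13.29, 13.23 and 13.02 in WD mice and 13.04, 13.13 and 12.98 in SD mice, a difference of 0.13 ± 0.13 (SE) with WD mouse 6 inside the SD range.

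The central apparatus surrounds the central pair. Spag6 and Spag6l are paralogs that encode a central apparatus protein, and whether their probes read both transcripts was not tested. Spag6 had 6.06, 6.27 and 6.26 in WD mice, against 5.94, 6.01 and 5.90 in SD mice. The WD mice all lay above the SD mice, and the difference was 0.25 ± 0.13 (SE). Its 95% interval ran between -0.05 and 0.54, with a limma unadjusted p of 0.0905 and an adjusted p of 0.935. The probe was dim, at percentile 22.4 of the tested levels. Its raw intensities were 155.6 to 198.2 in WD mice and 149.6 to 209.7 in SD mice. The median raw intensities of the arrays were 120.1 to 159.3 in WD mice and 126.2 to 172.5 in SD mice. Spag6l, whose cAMP response element is printed above, had 13.40, 13.67 and 13.56 in WD mice and 13.59, 13.45 and 13.58 in SD mice, and its second probe 11.89, 12.21 and 12.23 in WD mice, against 11.87, 12.20 and 12.15 in SD mice. Both Spag6l probes overlapped between the diets, with differences of 0.00 and 0.03.

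Spag16, a partner of Spag6 in the same structure, had 4 tested probes with differences of -0.15 ± 0.16, 0.09 ± 0.14, -0.02 ± 0.14 and 0.11 ± 0.15 (SE). The first read 11.49, 11.29 and 11.30 in WD mice and 11.79, 11.45 and 11.31 in SD mice, with SD mouse 1 the highest of the 6. The 4 probes of this gene thus did not share a sign, and 2 further Spag16 probes and the only Spag17 probe were detected on no array. Cfap69 had 13.91, 13.88 and 13.95 in WD mice and 13.84, 13.84 and 13.87 in SD mice. The diets did not overlap, with WD mouse 4 at 13.88 only just above SD mouse 5 at 13.87. The means differed by 0.07 ± 0.12 (SE). The gene's other tested probes overlapped, with differences of -0.01 ± 0.13 and -0.08 ± 0.36. The first probe had the smallest residual s.d. of the 53 genes, 0.03. Cfap65 and Cfap221 had differences of -0.06 ± 0.15 and 0.08 ± 0.14.

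The remaining CFAP genes act in the axoneme or in its building, several with roles that are less well placed. Cfap57 read 11.71, 11.59 and 11.81 in WD mice and 11.53, 11.44 and 11.69 in SD mice, with WD mouse 4 below SD mouse 5 and a difference of 0.15 ± 0.13 (SE; limma adjusted p = 0.951). Cfap43, which is needed for the mouse sperm tail, had 7.62, 7.45 and 7.60 in WD mice and 7.69, 7.76 and 7.66 in SD mice, and Cfap97d1 12.25, 12.38 and 12.34 in WD mice and 12.41, 12.46 and 12.44 in SD mice. At both genes the 3 WD mice lay below the 3 SD mice, by -0.15 ± 0.12 and -0.11 ± 0.12. Cfap100, a regulator of inner arms, gave the lowest difference, -0.31 ± 0.22, with 6.74, 6.43 and 6.28 in WD mice and 7.21, 6.71 and 6.46 in SD mice, where WD mouse 3 stood above SD mice 2 and 5. Cfap97 had 0.12 ± 0.14 at 1 probe and -0.03 and -0.27 at 2 others, and Cfap70 had -0.02 and 0.10 at its 2 probes. Cfap157, Cfap20dc, Cfap299, Cfap410, Cfap58 and Cfap97d2 lay between -0.12 and 0.11 at the probe with the highest mean, and Cfap36 was not detected.

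The rule also takes SPAG genes that work outside the axoneme. Spag4, a protein of the nuclear envelope needed to shape the sperm head, averaged 13.48 ± 0.13 in WD mice and 13.61 ± 0.04 in SD mice (s.d., n = 3 each), and its other 2 tested probes gave -0.19 ± 0.13 and -0.44 ± 0.28 (SE; limma adjusted p = 0.935 for both). The last read 4.93, 6.16 and 5.64 in WD mice, against 6.06, 6.12 and 5.86 in SD mice, so that WD mouse 4 lay above all SD mice. This probe was not detected in WD mouse 3. Spag7 had a difference of 0.00 ± 0.13 at 1 probe, while a second probe read 7.72, 8.04 and 7.84 in WD mice, against 8.39, 8.29 and 7.95 in SD mice. At that probe WD mouse 4 lay above SD mouse 5, the difference was -0.34 ± 0.16, the limma unadjusted p was 0.0667 and the adjusted p 0.935. Spag5, a protein of the mitotic spindle, had 0.01 ± 0.15 at its first probe and -0.25 and 0.15 at 2 others, and Spag9, a scaffold of kinase signalling, between -0.19 and 0.07 at 4 probes. Without these other SPAG genes the median of the remaining 49 genes was -0.02, as before.

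Probes of the same gene often differed in sign. Of the 21 axoneme genes with several tested probes, 12 had probes on both sides of 0: Cfap61, Cfap69, Cfap70, Cfap97, Dnaic1, Dnal1, Dnali1, Rsph9, Spag5, Spag7, Spag9 and Spag16.

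**Figure D3:**
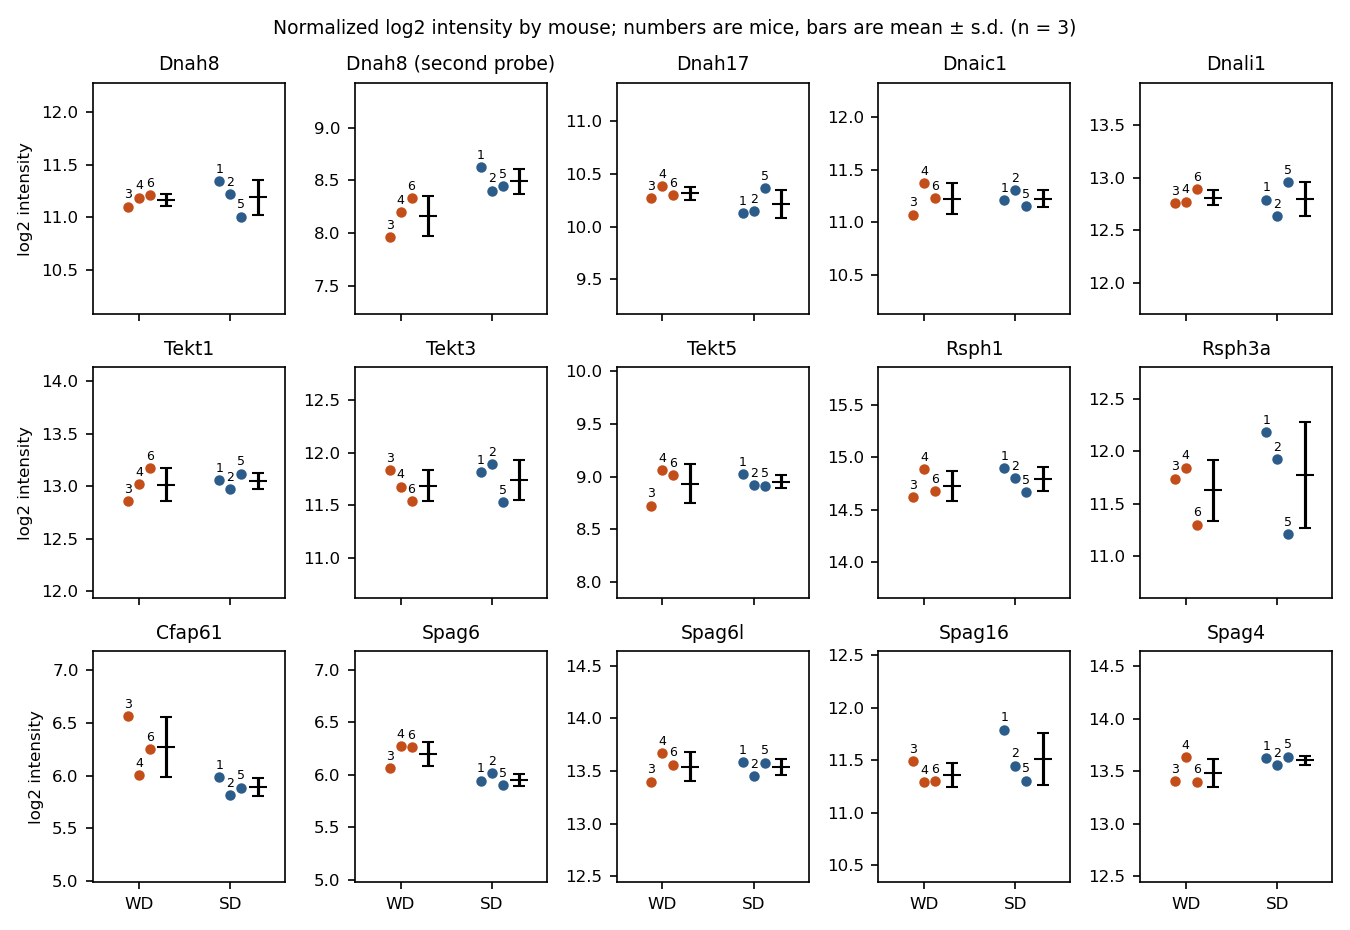
Normalized log2 intensity (vertical axis) of each mouse for 15 axoneme probes, WD left and SD right; the numbers are the mice and the bars are mean ± s.d. (n = 3). Every panel spans the same range of the log2 scale. WD and SD mice are apart at Cfap61, Spag6 and the second Dnah8 probe and overlap at the others, and at Rsph3a the low points are WD mouse 6 and SD mouse 5.

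The difference between individual mice was as large as that between the diets. Relative to the SD mean, the median deviation of the 53 axoneme genes was -0.06, 0.04 and 0.01 in WD mice 3, 4 and 6, and -0.001, -0.03 and -0.01 in SD mice 1, 2 and 5. WD mouse 3 was thus the lowest and WD mouse 4 the highest of the 6 mice. At 23 of the 83 axoneme probes (27.7%), WD mouse 6 and SD mouse 5 both lay outside the range of mice 1 to 4 on the same side, against 23.1% of all tested probes. Both were above the other mice at 14 of these, among them Dnal4, Cfap300 and Tekt1, and below them at 9, among them Rsph3a, Tekt3 and both Cfap206 probes. With mice 5 and 6 as a block in the limma fit, 0 axoneme probes passed the adjusted threshold, and over mice 1 to 4 alone 0 passed it and 4 (4.82%) had an unadjusted p under 0.05, against 7.88% of all tested probes. These were at Cfap298, Cfap53, Dnal4 and Spag7, all lower in WD mice.

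**Figure D4:**
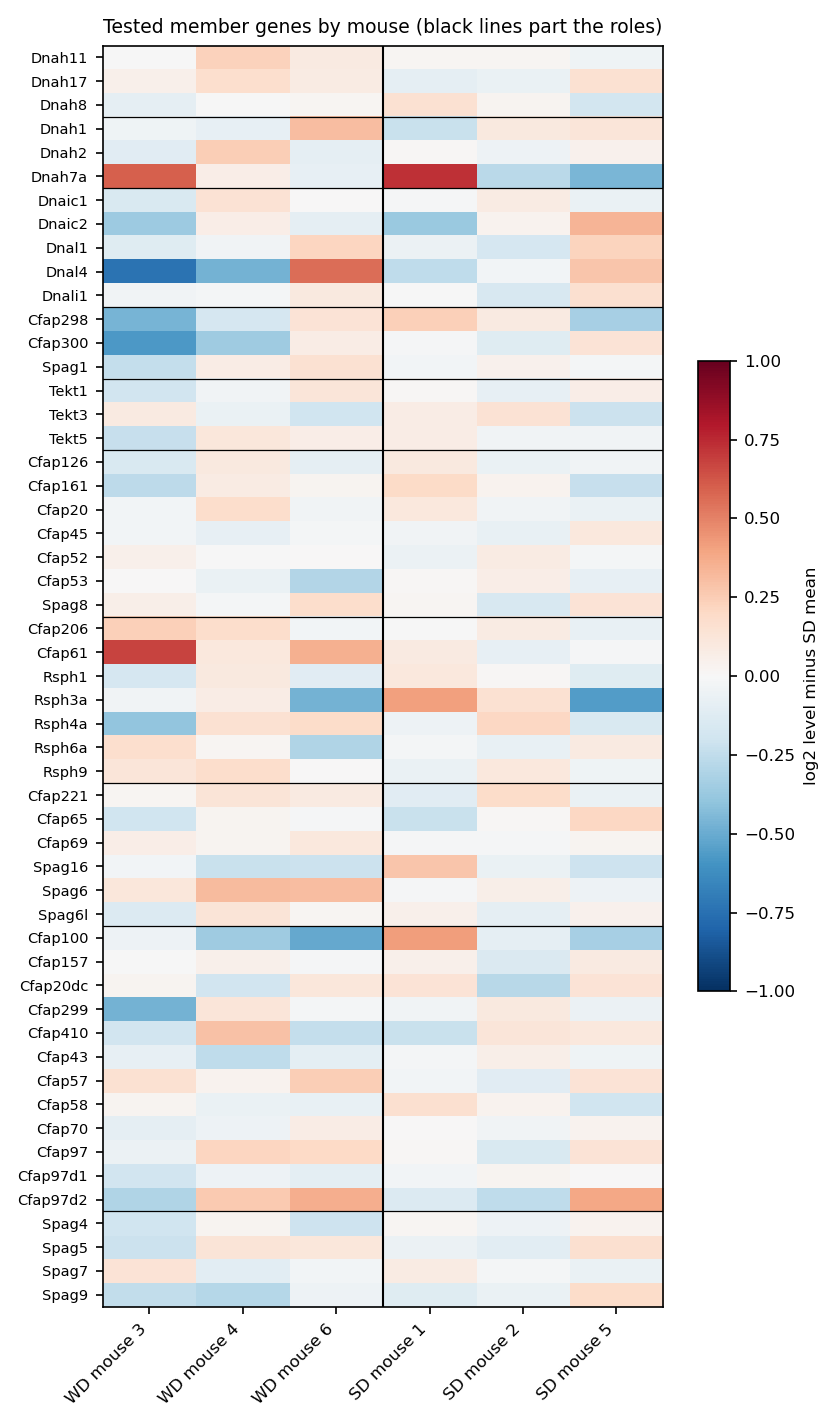
Log2 level minus the SD mean (colour) of the 53 tested axoneme genes (rows, grouped by role) in each mouse (columns, WD left and SD right). Rsph3a is low in WD mouse 6 and SD mouse 5, Dnah7a is high in WD mouse 3 and SD mouse 1, and the column of WD mouse 3 holds both the highest value of Cfap61 and the lowest of Dnal4.

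Markers of other cells stood apart in some of the same mice. All 10 of the 12 macrophage markers that were measured had a WD mean above the SD mean, against 51.7% of all tested genes. Their median deviations were 1.07, 0.27 and 0.15 in WD mice 3, 4 and 6 and -0.09, -0.02 and 0.10 in SD mice 1, 2 and 5. Their summed normalized intensity was 2553 to 4353 in WD mice and 2209 to 2307 in SD mice, without overlap, with Cd68 and C1qa not tested. Of their 14 tested probes, 6 had an unadjusted p under 0.05, all higher in WD mice, against 2.56% of all tested probes. Leydig cell markers stood at 0.65 in WD mouse 3 and between -0.04 and 0.02 in the other 5 mice, and their sum was 44196 to 59425 in WD mice and 41300 to 47714 in SD mice, with 7 of 8 measured. Sertoli cell markers, 9 of 12 measured and without Amh, Wt1 and Clu, stood at 0.30, 0.10 and -0.01 in WD mice and summed to 17381 to 23159 in WD mice and 16386 to 18279 in SD mice. Of the 10 measured markers of elongating spermatids, 8 had a WD mean below the SD mean and 2 above it, where 51.7% of all tested genes were above. The 2 were Smcp at 0.07 and Prm1, whose means differed only by rounding. The median deviation of the 10 markers was -0.12, -0.02 and -0.07 in WD mice and 0.03, 0.02 and -0.002 in SD mice. Their sum was 260507 to 261990 in WD mice and 268770 to 271939 in SD mice, without overlap. Round spermatid markers, 7 of 8 measured, had 4 above and 3 below. They summed to 45786 to 46839 in WD mice and 46455 to 47399 in SD mice, with overlap. Spermatocyte markers, 7 of 9 measured, had 2 above and 5 below. Their sums also overlapped, at 20446 to 22565 in WD mice and 19827 to 23076 in SD mice. An unadjusted p under 0.05 was also found at 2 of 9 Leydig probes and 1 of 13 Sertoli probes, all higher in WD mice, against 2.56% of all tested probes. It was found at 1 of 20 elongating spermatid probes, lower in WD mice, against 2.57%. In lists this short, 1 probe is 7.69% of the Sertoli and 5.0% of the elongating spermatid probes. How often the sums of other gene lists do not overlap by diet was not tested. No gene of these lists passed the adjusted threshold. The mouse with the lowest axoneme median, WD mouse 3, was also the one with the highest macrophage, Leydig and Sertoli medians and the lowest elongating spermatid median. Its spermatocyte median was the lowest and its round spermatid median the highest of all mice. The part of these cells in the axoneme values was not tested.

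**Figure D5:**
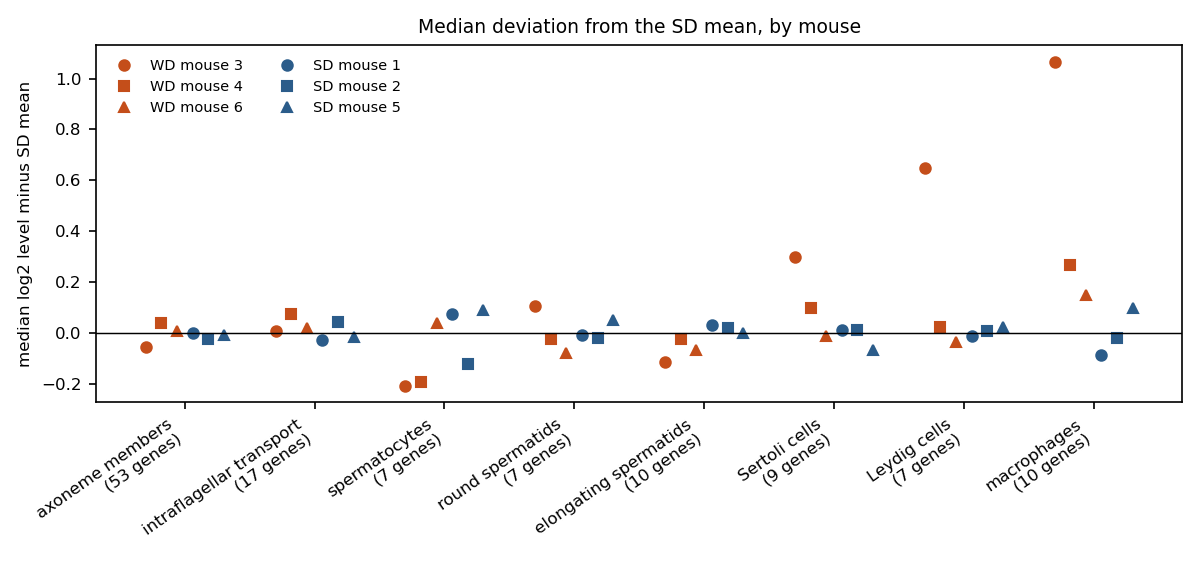
Median log2 level minus the SD mean (vertical axis) of the axoneme genes, intraflagellar transport genes and marker lists for each mouse, WD in orange and SD in blue. Axoneme genes lie between -0.06 and 0.04, while macrophage markers reach 1.07 and Leydig markers 0.65 in WD mouse 3.

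Among genes that work with the axoneme, 0 passed the adjusted threshold in any of 6 lists, against 0% of all tested probes. For the counts by direction below, 51.7% of all tested genes had a WD mean above the SD mean. Among dynein arm assembly and docking factors outside the symbol rule, 8 had a WD mean above and 7 below the SD mean. Dnaaf4, an assembly factor, read 4.81, 4.76 and 6.05 in WD mice and 6.22, 5.99 and 5.80 in SD mice. Its difference was -0.80 ± 0.33 (SE; limma adjusted p = 0.935), and WD mouse 6 stood among the SD mice. The values of WD mice 3 and 4 lay below the lowest detected level of their arrays, 5.35 on both, so the size is uncertain. At Ccdc114, a docking factor of the outer arm, 1 of 3 probes read 5.32, 5.68 and 6.07 in WD mice. It read 5.02, 4.87 and 5.25 in SD mice, without overlap. The difference was 0.64 ± 0.21 (SE; limma adjusted p = 0.880), while the gene's brightest probe differed by 0.07. At the dim probe WD mouse 3 and SD mice 1 and 2 lay below the lowest detected levels of their arrays, 5.35, 5.38 and 5.43. The Dnaaf4 probe and this Ccdc114 probe were the list's probes with an unadjusted p under 0.05, 1 higher and 1 lower of 23. They make 8.7% of the list, against 5.13% of all tested probes. Partners of the ruler, the nexin links and the spokes divided into 11 above and 11 below, with a largest difference of -0.28. Intraflagellar transport, which carries parts to the growing tail, divided into 9 and 8, and Dync2li1, a chain of its return motor, lay between 9.90 and 10.07 in WD mice, below 10.20 to 10.43 in SD mice (limma adjusted p = 0.935). A probe of Ift27, a member of the transport complex, read 8.02, 7.90 and 7.75 in WD mice, above 7.24, 7.67 and 7.27 in SD mice, a difference of 0.50 ± 0.16 (SE; limma adjusted p = 0.885), while its brighter probe differed by -0.09. No other of this list's 35 probes had an unadjusted p under 0.05, so the share was 5.71%, near the 5.13% of all tested probes. Cytoplasmic dynein had 5 above and 4 below. Tubulins had 5 above and 6 below, with Tubb5 at 0.35 ± 0.14 and Tubb4a at -0.62 ± 0.24 (SE; limma adjusted p = 0.925 and 0.922). Tubb4a lay below the lowest detected level in WD mice 3 and 4 and SD mouse 1. Of the 16 tubulin probes, only those of Tubb5 and Tubb4a had an unadjusted p under 0.05 (12.5%, against 5.13% of all tested probes). The ruler, cytoplasmic dynein and regulator lists had 0 such probes.

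Among the regulators whose motifs were searched, Rfx1 had 9.57, 9.69 and 9.91 in WD mice and 10.26, 9.91 and 10.06 in SD mice, a difference of -0.35 ± 0.15 (SE) with a limma adjusted p of 0.935. WD mouse 6 and SD mouse 2 had the same level to 2 decimals. The second Rfx1 probe gave -0.25 ± 0.13. Rfx1 had the largest difference of the 8 regulators measured, of which 4 had a WD mean above and 4 below the SD mean. At their brightest probes Rfx2, Rfx3, Rfx4 and Crem differed by 0.05, -0.01, -0.14 and 0.02. The other tested Rfx4 probes gave 0.15 and 0.31.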

How the data were processed

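The authors' deposited table, exported from GenomeStudio (version not given in the sources used here), holds 1 linear bead intensity per probe and array, without background subtraction or scaling. Its deposited detection column was read as a score that rises with the intensity, and 1 minus that score as the detection p. A second deposited table gives log2 values of the same arrays. Set against the intensities, they differed from their log2 only by the upper quartile of each array and by a constant per probe, whose origin is unknown, within an s.d. of 0.000152, so that scale and direction are known.

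Intensities were background corrected with the detection p, quantile normalized and put on the log2 scale after an offset of 16, as in neqc (limma 3.58.1, R 4.3.3). Probes with a detection p under 0.05 on at least 3 of 6 arrays were tested (19763), and WD minus SD was fitted with lmFit and eBayes, two-sided, with Benjamini-Hochberg adjustment over all tested probes. The procedure was tested on simulated data. The number of arrays limits the precision. Each p sets a difference against the spread between these mice, after eBayes drew each probe's variance toward that of all tested probes. At the steadiest probes the SE is therefore wider than their own spread alone would give. The first Cfap69 probe, for example, had a residual s.d. of 0.03 and an SE of 0.12.

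Gene symbols are those of the platform annotation, in which 34885 probes have 1 symbol, 18 several and 10378 none. All 120 axoneme probes matched the RefSeq gene table (GRCm38.p6) by Entrez number. No build is named in the deposited files, and the only coordinates given are those of the RefSeq promoters. The members, the gene lists, the roles and the tests were chosen with earlier results of these data known. Named were the 6 axoneme probes with the smallest p in each direction, every tektin, chain, spoke, Spag6, Spag6l, Spag16 and Spag17 probe, and every gene whose tested probes differ in sign. Further genes were named to account for the members of each role, after their values were seen. Alternatives covered background correction, scaling, the deposited values, the detection filter, the variance model, array weights, mice 5 and 6, the choice of probe and each mouse left out.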

Additional observations from a re-analysis of the deposited data

How the results depend on the processing

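No axoneme probe passed the adjusted threshold under any of 16 other fits, in which the lowest adjusted p was 0.541 over all probes and 0.569 over axoneme probes. The number of axoneme probes at an unadjusted p under 0.05, which was 0, became 2 without background correction, 1 with median scaling, 4 with the deposited log2 values, 3 without a detection filter, 2 with detection required on all 6 arrays, 2 with a detection p under 0.01, 1 with an intensity trend in the variance and 4 with mice 1 to 4 only. Leaving out 1 mouse gave 0 to 4, with 3 without WD mouse 4, 4 without WD mouse 6 and 1 each without SD mouse 1 and SD mouse 5. In these 16 fits 0% to 4.82% of the axoneme probes were below that p, against 3.88% to 7.94% of all tested probes, and in each fit the axoneme share was the lower. The second Dnah8 probe was below that p in 8 of the 16 fits, always lower in WD mice, and the first Cfap61 probe in 4, always higher. The median of the axoneme genes was -0.0795 with median scaling, which moved the median of all tested probes to -0.05, and -0.0627 with the deposited values, which moved it to -0.01, and it ran between -0.0432 and 0.0386 with 1 mouse left out. The median of the Cfap genes, which was -0.04, became -0.0985 with median scaling, -0.0701 with the deposited values and -0.0014 with mice 1 to 4 only, and ran between -0.0452 and 0.0102 with 1 mouse left out. Medians of the other subfamilies moved by less than the spread between mice. Of 826 values of the 52 named probes under other settings, 95 had another sign and 9 moved by more than 1 s.d., while 19 probes kept their sign throughout. The cause was not tested. No paired analysis was possible because no mouse number occurs in both diets.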
